A study of Homo sapiens with 9 samples.

Results

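The 10 genes described here build and regulate the actin cytoskeleton: the cytoplasmic actins ACTB and ACTG1, the thymosins TMSB4X and TMSB10, profilin PFN1, cofilin CFL1, coronin CORO1A, the Arp2/3 subunit ARPC1B, and the filament-binding proteins LCP1 and LSP1. They were chosen by name, and each symbol matched 1 Ensembl identifier among the 57338 genes of the deposited table. RNA was measured in 9 libraries that are all labelled as HEK293T, a human embryonic kidney line. Per the study the cells were transfected with a plasmid coding for EGFP alone (empty vector), EGFP joined to human protamine 1 (hPRM1) or EGFP joined to human protamine 2 (hPRM2). By this design all groups carried EGFP, all were transiently transfected rather than stable clones, and live cells with high EGFP were sorted 3 days later. Each group has 3 libraries, and the sources do not say whether these came from separate transfections, so p-values measure the spread between these libraries, which may be technical.

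Actin monomers (G-actin) assemble into filaments (F-actin) and return to the monomer pool. Thymosins hold monomers in reserve, profilin feeds them to growing ends, cofilin severs old filaments, the Arp2/3 complex starts branches, and coronins, plastins and related proteins bind, bundle or remodel the filaments. Every cell carries such a machinery, but blood cells use particular members: CORO1A, LCP1 (L-plastin) and LSP1 are known as leukocyte genes, whereas ACTB, ACTG1, PFN1, CFL1 and TMSB10 are made by nearly all cells. The name "leukocyte actin cytoskeleton" thus suits only some of the 10, and 7 of them were at 1 RPKM or more in every empty vector library.

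The libraries labelled hPRM1 went against their label. PRM1 was listed at 0 in all 9 libraries, including the 3 labelled hPRM1, whereas PRM2 stood at 71224, 60050.2 and 36130.2 RPKM (read count scaled by the total of the library and by gene length in kilobases) in the 3 hPRM2 libraries and at 0 elsewhere. The 6 markers of HEK293T cells (LIN28B, IGF2BP1, PAX2, KRT8, KRT18, NEFM) summed to 161 to 204 RPKM with the empty vector and 193 to 296 RPKM with hPRM2, but to 0.652 to 1.87 RPKM in the libraries labelled hPRM1, where LIN28B, IGF2BP1, PAX2 and NEFM were at 0. The sum with hPRM2 rests on KRT8, which had a mean of 21.4 RPKM with the empty vector and 179 RPKM with hPRM2, while the mean of each of the other 5 was lower with hPRM2, as for LIN28B (17.2 and 8.64 RPKM) and NEFM (76.0 and 40.4 RPKM). The 5 red cell genes (HBB, HBA1, HBA2, ALAS2, AHSP) summed to 2060110 to 2266140 RPKM there and to at most 18.0 RPKM in any other library. The names of those 3 libraries also belong to another number series than the names of the other 6, so the number series and the condition cannot be told apart. The deposited table gives no depth directly, but the spacing of low values put the reads on genes at 7930000 to 10790000 with the empty vector, 4210000 to 5860000 in the libraries labelled hPRM1 and 1270000 to 2650000 with hPRM2. The average reads that the study reports are larger in every group. They place hPRM2 above hPRM1, the reverse of this estimate, and the reason was not tested. At the estimated depths a gene at 0 could still have had up to 3 reads, or 0.378, 0.712 and 2.36 RPM (reads scaled by the total of the library only) in the 3 groups, covering counting error only.

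The median of all 13588 genes tested stood at -1.72 (log2) in the libraries labelled hPRM1 against the empty vector on the deposited scale, which divides each gene by the total of its library. Scaling by the median of ratios (each library divided by its median ratio to a mean library) put that median at -0.12, and quantile normalization put it at -0.38. Of all genes called, 82.9% were lower on the deposited scale, and 57.9% under quantile normalization; with the median of ratios 3919 were higher and 3925 lower. A gene near -1.72 on the deposited scale thus moved with the median gene. The direction of a gene moderately below 0 on that scale can depend on the scaling. ACTG1, for example, was at -1.86 on the deposited scale and at 0.33 after the median of ratios. For the same reason ratios of 2 genes within a library, which a linear rescaling alters only through the pseudocount, are given beside the differences.

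Upstream sequence was looked up because ACTB and ACTG1 differed in direction on the deposited scale, though not under the other scalings. A further reason was that CORO1A and LCP1 both went from near 0 to 120.6 RPKM or more. RefSeq held a promoter for 7 of the 10 genes on GRCh38.p14. ACTB, ARPC1B and LSP1 were not matched, so the 2 actins could not be compared in this respect. The CArG box, the element bound by serum response factor at many actin genes, was found in 1.16% of 35116 promoters and in 1 of the 7, ACTG1, 94 bases before the RefSeq start. The core of the PU.1 site, searched as GAGGAA on both strands, was found in 23.6% of promoters and in 2 of the 7, CORO1A and LCP1, at 233 and 193 bases before the start. PU.1 is a transcription factor of myeloid and B cells, and a match to 6 letters is a description of the sequence, not of binding. The 250 bases before each start are shown 5′ to 3′ on the gene's strand, with the matched letters in capitals, for ACTG1 (chr17:81512800-81513049, minus strand), CORO1A (chr16:30183352-30183601, plus strand) and LCP1 (chr13:46182178-46182427, minus strand).
ACTG1: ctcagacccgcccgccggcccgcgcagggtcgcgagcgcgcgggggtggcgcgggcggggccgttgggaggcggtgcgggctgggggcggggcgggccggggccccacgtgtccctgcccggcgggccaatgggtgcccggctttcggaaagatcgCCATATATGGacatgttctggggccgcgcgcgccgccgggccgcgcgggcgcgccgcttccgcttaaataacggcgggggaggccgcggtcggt
CORO1A: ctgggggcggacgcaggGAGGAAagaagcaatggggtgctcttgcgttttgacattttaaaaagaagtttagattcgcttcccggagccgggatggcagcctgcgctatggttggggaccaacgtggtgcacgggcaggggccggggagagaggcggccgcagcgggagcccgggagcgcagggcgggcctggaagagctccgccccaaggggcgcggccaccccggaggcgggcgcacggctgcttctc
LCP1: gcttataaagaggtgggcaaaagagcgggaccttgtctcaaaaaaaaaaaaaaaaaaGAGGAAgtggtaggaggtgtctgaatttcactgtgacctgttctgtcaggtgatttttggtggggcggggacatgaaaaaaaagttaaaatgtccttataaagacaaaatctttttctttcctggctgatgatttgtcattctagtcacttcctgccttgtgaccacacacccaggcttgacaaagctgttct
The G and C content ranged from 41.2% in LCP1 to 78.8% in ACTG1 among the 7.

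In the comparison of the libraries labelled hPRM1 with the empty vector, 6 of the 10 genes were called higher and 1 lower by limma on log2(RPKM + 1), at a Benjamini-Hochberg adjusted p of at most 0.05 over all genes tested and at least a 2-fold difference. ACTB, TMSB4X, CORO1A, ARPC1B, LCP1 and LSP1 rose and ACTG1 fell on the deposited scale. Among all genes tested, 12.9% were called higher and 62.5% lower. After the median of ratios or quantile normalization 9 of the 10 were called higher and ACTG1 was not called. More genes were called higher under these scalings in general. Of all 13588 genes tested, 3919 were called higher and 3925 lower after the median of ratios. Quantile normalization gave 3404 higher and 4672 lower. CORO1A, LCP1 and LSP1 passed the filter on low values only through the libraries labelled hPRM1, in which they are high, so their calls follow in part from that filter. The median difference of the 10 genes was 1.89 (log2) on the deposited scale and 4.07 after the median of ratios. In all 10 genes the 3 libraries labelled hPRM1 did not overlap the 3 empty vector libraries, which was so for 80.8% of all genes tested. With hPRM2, none of the 8 genes that could be tested was called, and all 10 overlapped the empty vector, LSP1 by being at 0 in both groups. Among all genes tested 35.9% did not overlap in that comparison.

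**Figure D1:**
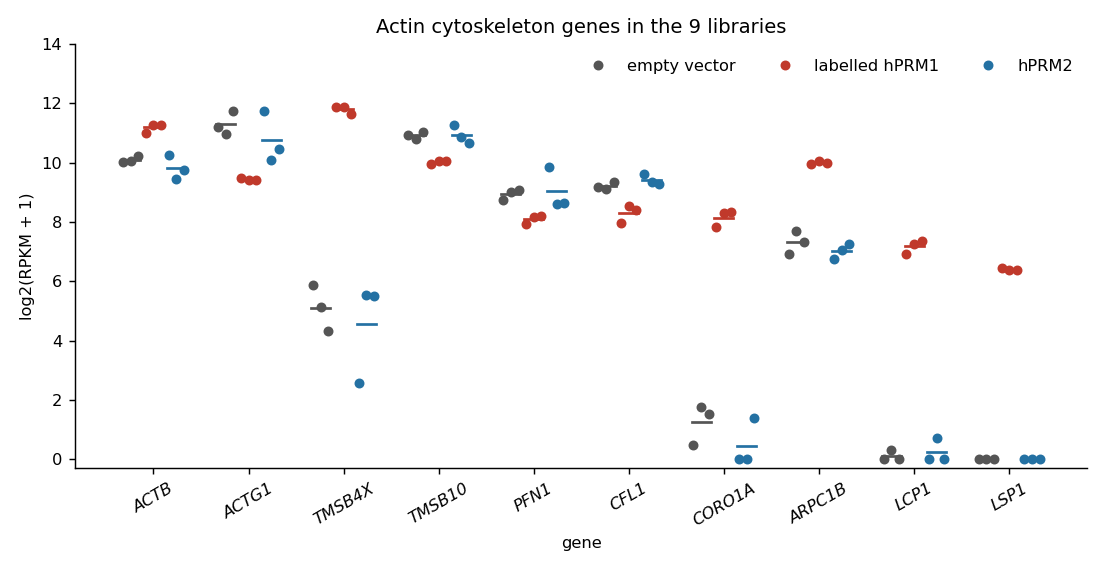
RPKM of the 10 actin cytoskeleton genes, plotted as log2(RPKM + 1), with 1 point per library and a bar at the mean of the 3 libraries of a group. TMSB4X, CORO1A, LCP1 and LSP1 are low or at 0 in the 6 empty vector and hPRM2 libraries and high in the 3 labelled hPRM1, while TMSB10, PFN1, CFL1 and ACTG1 are lower there on this deposited scale, a direction that turns under the median of ratios and quantile normalization.

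The 2 cytoplasmic actins exchanged their order. ACTB (ENSG00000075624, GRCh38, chr7:5527147-5563784, minus strand), β-actin, stood at 1043, 1055 and 1200.5 RPKM with the empty vector, at 2063, 2496 and 2476 RPKM in the libraries labelled hPRM1, and at 1236, 703 and 854 RPKM with hPRM2. Every library labelled hPRM1 was above every other library. The mean rose 2.13-fold, from 1099.6 ± 87.6 to 2345 ± 245 RPKM (SD, n = 3 each), a log2 difference of 1.09 (SE 0.14, adjusted p = 0.000378, limma).

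ACTG1 (ENSG00000184009, chr17:81509971-81523847, minus strand), γ-actin, stood at 2341, 1979 and 3398 RPKM with the empty vector and at 714, 676 and 678 RPKM in the libraries labelled hPRM1. With hPRM2 it stood at 3415, 1079 and 1396.5 RPKM, so that 1 library lay at the top of the empty vector range and the other two below it. The log2 difference of the libraries labelled hPRM1 from the empty vector was -1.86 on the deposited scale (SE 0.21, adjusted p = 0.000217, limma), but 0.33 after the median of ratios (adjusted p = 0.308) and 0.16 after quantile normalization (adjusted p = 0.437), and over the 15 alternatives the adjusted p ran from 8.61e-05 to 0.437. The fall of ACTG1 was thus close to that of the median gene.

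The share of ACTB in the sum of both actins does not depend on a linear scaling. It was 30.8%, 34.8% and 26.1% with the empty vector. It was 74.3%, 78.7% and 78.5% in those labelled hPRM1, and 26.6%, 39.5% and 37.9% with hPRM2. The summed RPKM of both genes was 3672 ± 821 with the empty vector, 3034 ± 223 in the libraries labelled hPRM1 and 2895 ± 1539 with hPRM2 (SD, n = 3 each), so these sums overlapped while the shares of the libraries labelled hPRM1 did not. No 50-base word in the last 500 bases of either transcript occurred in another gene, and the pseudogenes of ACTB and ACTG1 added at most 1.68% to either level in any library.

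The thymosins also exchanged their order. TMSB4X (ENSG00000205542, chrX:12975108-12977227, plus strand), thymosin β4, the main store of actin monomers in many blood cells and platelets, stood at 58.1, 34.3 and 18.9 RPKM with the empty vector, at 3728, 3795 and 3189 RPKM in the libraries labelled hPRM1, and at 4.99, 45.7 and 44.4 RPKM with hPRM2. It was the highest of the 10 genes in the libraries labelled hPRM1 and the seventh in each of the other groups by mean. The mean was 96.3-fold higher in the libraries labelled hPRM1 than with the empty vector, and the log2 difference was 6.68 (SE 0.38, adjusted p = 1.2e-05, limma). Of its last 500 bases, 23.5% of the 50-base words occurred in pseudogenes; the only one above 0, TMSB4XP4, held up to 14.8% of the summed RPKM with the empty vector, up to 0.609% in the libraries labelled hPRM1 and up to 35.9% with hPRM2.

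TMSB10 (ENSG00000034510, chr2:84905625-84906675, plus strand), thymosin β10, a related monomer-binding protein abundant in fetal and dividing cells, stood at 1932, 1798 and 2117 RPKM with the empty vector, at 982, 1058 and 1052 RPKM in the libraries labelled hPRM1, and at 2441, 1877 and 1625 RPKM with hPRM2. The libraries labelled hPRM1 were all below the others. The log2 difference from the empty vector was -0.92 (SE 0.13, adjusted p = 0.000527, limma), under the 2-fold threshold, and it turned to 1.27 after the median of ratios and 1.15 under quantile normalization, both called. TMSB4X made up 2.92%, 1.87% and 0.884% of the summed thymosin RPKM with the empty vector. It made up 79.2%, 78.2% and 75.2% in those labelled hPRM1, and 0.204%, 2.38% and 2.66% with hPRM2. Since a 3′ library gives about 1 read per transcript, RPKM places a short transcript such as TMSB10 higher than a longer one at the same number of molecules, equally in every library.

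PFN1 (ENSG00000108518, chr17:4945652-4949061, minus strand), the ubiquitous profilin, stood at 429, 519 and 542 RPKM with the empty vector, at 243, 287 and 290.4 RPKM in the libraries labelled hPRM1, and at 922, 393 and 395 RPKM with hPRM2. CFL1 (ENSG00000172757, chr11:65823022-65862026, minus strand), the non-muscle cofilin, stood at 579, 558 and 646 RPKM with the empty vector, at 249, 372 and 337 RPKM in the libraries labelled hPRM1, and at 776, 649.5 and 619 RPKM with hPRM2. Both genes kept their order relative to each other in each group's mean, and both were lowest in the libraries labelled hPRM1 on the deposited scale. The log2 differences from the empty vector were -0.86 for PFN1 (SE 0.16, adjusted p = 0.00241) and -0.91 for CFL1 (SE 0.19, adjusted p = 0.00376, limma), neither reaching 2-fold. They turned to 1.33 and 1.27 after the median of ratios and to 1.04 and 1.05 after quantile normalization, and both genes were then called higher.

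The ranks among all genes of a library, largest RPKM first, do not change with a linear scaling either. PFN1 was at rank 446, 375 and 373 with the empty vector and at rank 213, 228 and 188 in the libraries labelled hPRM1. CFL1 was at rank 349, 346 and 325 and at rank 203, 172 and 156. TMSB10 moved from rank 119, 123 and 120 to rank 58, 61 and 48. Each of these genes thus stood at a higher rank in the libraries labelled hPRM1, although its RPKM was lower. For CFL1 the pseudogene CFL1P1 stood at 6.05 to 11.6 RPKM with the empty vector, at 0 in the libraries labelled hPRM1, and at 1.21, 91.7 and 53.9 RPKM with hPRM2, where it reached up to 12.4% of the sum.

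ARPC1B (ENSG00000130429, chr7:99374249-99394816, plus strand) codes for the form of the ARPC1 subunit of the Arp2/3 complex that prevails in blood cells. It stood at 120.1, 206 and 159.6 RPKM with the empty vector, at 998, 1071 and 1015 RPKM in the libraries labelled hPRM1, and at 106, 130.5 and 153 RPKM with hPRM2. The mean of the libraries labelled hPRM1 was 6.35-fold that of the empty vector, with a log2 difference of 2.69 (SE 0.22, adjusted p = 4.4e-05, limma). The other form, ARPC1A, stood at 134, 121 and 139 RPKM with the empty vector, at 26.7, 18.8 and 19.9 RPKM in the libraries labelled hPRM1, and at 348, 32.4 and 114 RPKM with hPRM2. Its log2 difference between the former groups was -2.55 on the deposited scale (adjusted p = 3.87e-05) and -0.41 after the median of ratios (adjusted p = 0.187, limma). The ratio of ARPC1B to ARPC1A was 0.894, 1.70 and 1.15 with the empty vector against 37.3, 57.1 and 51.1 in the libraries labelled hPRM1. For ARPC1B, 67.2% of the 50-base words at its 3′ end also occurred in 1 other annotated gene (ENSG00000284292), so its level depends on how the counting shared those reads.

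CORO1A (ENSG00000102879, chr16:30182827-30189076, plus strand), a coronin of leukocytes, stood at 0.406, 2.40 and 1.91 RPKM with the empty vector, at 227, 313 and 319 RPKM in the libraries labelled hPRM1, and at 0, 0 and 1.60 RPKM with hPRM2. LCP1 (ENSG00000136167, chr13:46125920-46211871, minus strand), which bundles filaments, stood at 0, 0.253 and 0 RPKM with the empty vector, at 120.6, 153 and 163 RPKM in the libraries labelled hPRM1, and at 0, 0.638 and 0 RPKM with hPRM2. LSP1 (ENSG00000130592, chr11:1852970-1892267, plus strand), an F-actin-binding protein of lymphocytes and neutrophils, was listed at 0 in all 6 empty vector and hPRM2 libraries and stood at 85.7, 81.4 and 82.3 RPKM in those labelled hPRM1. These 3 genes were at 2.40 RPKM or less in every empty vector and hPRM2 library and at 81.4 RPKM or more in every library labelled hPRM1.

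Fitted log2 differences from the empty vector were 6.88 for CORO1A (SE 0.37, adjusted p = 1e-05), 7.08 for LCP1 (SE 0.22, adjusted p = 2.68e-06) and 6.39 for LSP1 (SE 0.18, adjusted p = 2.39e-06, limma). Against values at or near 0 they depend on the added pseudocount and are no measure of a fold. For LSP1 the value was 4.14 with a pseudocount of 5 and 9.70 with one of 0.1, and for LCP1 it was 4.88 and 9.89. An exact 0 in this table can also be a failed estimate, since MYL12B, a myosin light chain of most cells, was at most 2.14 RPKM in every library. A pseudogene, LSP1P4, stood at 1.90, 0 and 10.1 RPKM with the empty vector, at 0, 1.26 and 0 RPKM in the libraries labelled hPRM1, and at 0, 5.82 and 7.25 RPKM with hPRM2. Of the 50-base words at the 3′ end of CORO1A, 22.2% were shared with 1 other gene (ENSG00000260335), whereas LCP1 and LSP1 shared none.

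**Figure D2:**
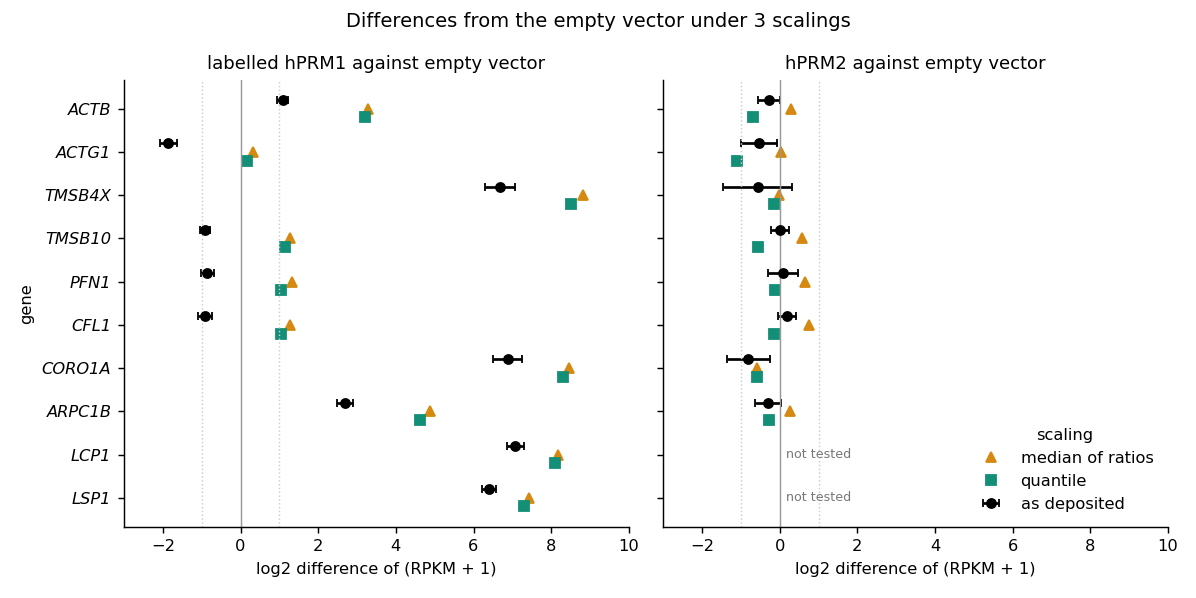
Log2 differences of (RPKM + 1) from the empty vector for the 10 genes, under the deposited scaling (black circles, bars of 1 SE), the median of ratios (orange triangles) and quantile normalization (green squares), with dotted lines at the 2-fold threshold. In the libraries labelled hPRM1, ACTG1, TMSB10, PFN1 and CFL1 lie below 0 on the deposited scale and above 0 under both others, and the remaining 6 genes lie above 0 under all 3. With hPRM2 the values run from -1.10 for ACTG1 under quantile normalization to 0.76 for CFL1 under the median of ratios.

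The levels of the 10 genes followed a different order in the libraries labelled hPRM1. With the empty vector the order of mean RPKM was ACTG1, TMSB10, ACTB, CFL1, PFN1, ARPC1B, TMSB4X, CORO1A, LCP1 and LSP1, and only ACTG1 with TMSB10 and LCP1 with LSP1 overlapped as neighbours. In the libraries labelled hPRM1 it was TMSB4X, ACTB, TMSB10, ARPC1B, ACTG1, CFL1, CORO1A, PFN1, LCP1 and LSP1. There TMSB10 overlapped ARPC1B, and CFL1, CORO1A and PFN1 overlapped as neighbours. With hPRM2 the first 5 were TMSB10, ACTG1, ACTB, CFL1 and PFN1, each overlapping the next, followed by ARPC1B and TMSB4X, and then by CORO1A, LCP1 and LSP1, which overlapped. Together the 10 genes summed to 6153 to 8084 RPKM with the empty vector, 9411 to 10302 RPKM in the libraries labelled hPRM1 and 4879 to 8902 RPKM with hPRM2.

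Markers of several blood cells moved with these differences. The 5 pan-leukocyte genes (PTPRC, CD53, LAPTM5, CD48, CD52) summed to 706 to 788 RPKM in the libraries labelled hPRM1, all 5 at 1 RPKM or more, against 0 to 2.68 RPKM with the empty vector and 0 with hPRM2. The 5 neutrophil and monocyte genes (S100A8, S100A9, LYZ, CSF3R, FCN1) summed to 3048 to 3899 RPKM against at most 5.41 RPKM in the other libraries. The 5 lymphocyte genes (CD3E, CD2, IL7R, CD79A, MS4A1) summed to 183 to 264 RPKM and were all at 0 in the other 6 libraries. The 5 platelet genes (PPBP, PF4, GP9, ITGA2B, TUBB1) summed to 319 to 560.4 RPKM against at most 13.5 RPKM elsewhere. This sum rests mainly on PF4, at 290, 460 and 416 RPKM, while GP9 stood at 0.801, 3.34 and 2.10 RPKM. ITGA2B was already at 4.72, 3.85 and 9.05 RPKM with the empty vector. The part of these cell types in the levels of the 10 genes was not tested, and in bulk RNA a change in the number of cells of a type and a change in RNA per cell cannot be told apart.

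Ratios within a library were compared for 9 pairs of a blood cell form, or the first of 2 related genes, over its counterpart. All 9 ratios were higher in the libraries labelled hPRM1 than with the empty vector, with no overlap between the groups. The pairs and the order within each were fixed with earlier results of these data known, so the shared direction is no independent result. The exact two-sided permutation test gave p = 0.1 for each, the smallest value that 3 against 3 libraries allow, and 0.182 after adjustment over 20 tests, so no pair could pass the threshold. The log2 difference in ratio of (RPKM + 1) was 2.95 for ACTB over ACTG1 and 7.60 for TMSB4X over TMSB10, where no library was at 0. For LCP1 over PLS3 it was 13.29 and for CFL1 over CFL2 3.37, but libraries at 0 make both values depend on the pseudocount.

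PLS3, the plastin of most other tissues, stood at 87.2, 78.5 and 57.9 RPKM with the empty vector and was at 0 in the 3 libraries labelled hPRM1. PFN2, a profilin of neurons and other cells, fell from 142, 119 and 182 RPKM to 1.81, 1.44 and 0.125 RPKM, which put the ratio of PFN1 to PFN2 5.36 higher (log2). With PFN2 this low, that value depends on the pseudocount too. Without one the ratio was 3.02, 4.37 and 2.98 with the empty vector and 135, 200 and 2322 in the libraries labelled hPRM1. CFL2, the muscle cofilin, fell from 18.8, 19.1 and 25.5 RPKM to 0.420, 0 and 0 RPKM. In these pairs the counterpart went to or near 0, while PFN1 and CFL1 stayed at 243 RPKM or more.

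CORO1C was the counterpart that was not lower in the libraries labelled hPRM1 on the deposited scale. This coronin, found in most tissues, stood at 10.6, 11.3 and 13.5 RPKM with the empty vector and at 14.3, 23.6 and 22.2 RPKM in the libraries labelled hPRM1, a log2 difference of 0.69 that did not reach 2-fold (adjusted p = 0.04, limma) and was 2.71 after the median of ratios. The ratio of CORO1A to CORO1C was 6.19 higher (log2) with no overlap, a value that the pseudocount also alters. Without it the ratio was 0.0384, 0.213 and 0.141 with the empty vector and 15.9, 13.2 and 14.4 in the libraries labelled hPRM1. RAC2, a GTPase of blood cells, went from 0.921, 1.52 and 0 RPKM to 461, 542 and 509 RPKM, and RAC1, its form in most cells, from 425, 438 and 435 RPKM to 151, 225 and 205 RPKM. The log2 difference of RAC1, -1.17 on the deposited scale, turned to 1.01 after the median of ratios. NCKAP1L, the WAVE complex subunit of blood cells also called HEM1, went from 0, 0.133 and 0 RPKM to 26.2, 24.9 and 24.7 RPKM, and NCKAP1 from 3.34, 3.11 and 3.22 RPKM to 0.0424, 0 and 0.0381 RPKM.

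**Figure D3:**
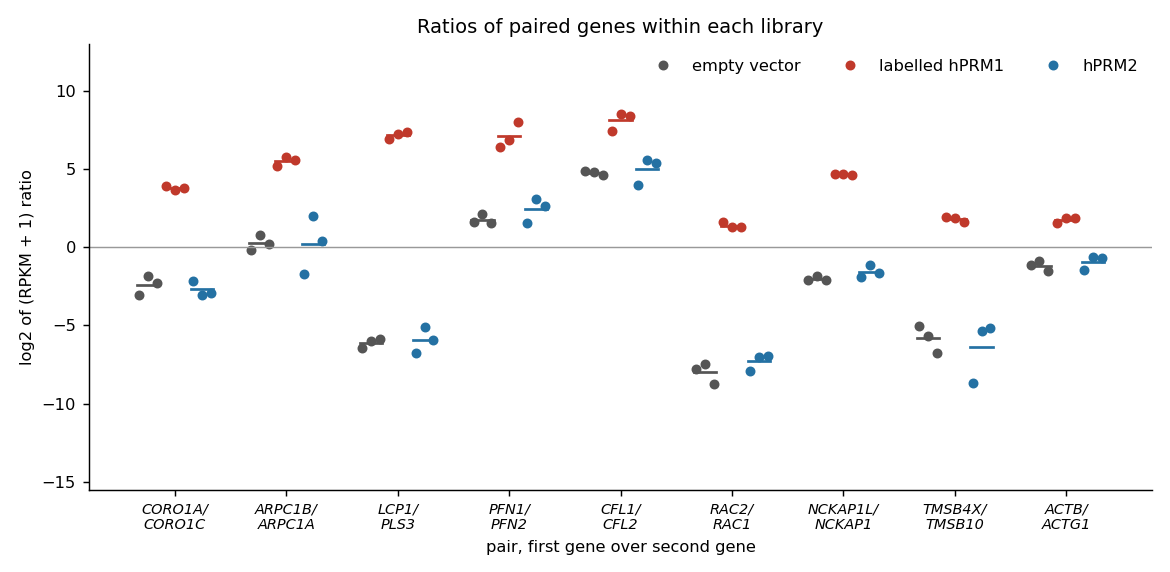
Log2 of the ratio of (RPKM + 1) between paired genes in each library, with 1 point per library and a bar at the group mean. In all 9 pairs the 3 libraries labelled hPRM1 lie above the 3 empty vector and the 3 hPRM2 libraries, and the hPRM2 points overlap those of the empty vector in each pair.

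The wider machinery was described with a list of 125 actin genes in 12 roles, of which 112 could be tested in the libraries labelled hPRM1 against those of the empty vector. Of these, on the deposited scale, 28 were called higher (25.0%) and 51 lower (45.5%), against 12.9% and 62.5% of all genes, and the median difference was -0.79 (log2) against -1.72 for all genes. After the median of ratios 64 were higher and 22 lower, with a median of 1.30. Of all 13588 genes tested, 3919 were then higher and 3925 lower, with a median of -0.12. Leaving out the 10 genes, 22 of 102 were called higher and 50 lower, with a median of -0.90, and 55 were higher and 22 lower after the median of ratios. Some genes called higher, such as HCLS1, NCKAP1L and MYO1F, passed the filter on low values only through the libraries labelled hPRM1, in which they are high. Some called lower, such as TMSB15A and PLS3, passed it only through the empty vector libraries. These counts and shares thus follow in part from that filter.

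Among the Arp2/3 activators 6 of 17 were called higher and 9 lower on the deposited scale, or 8 and 6 after the median of ratios. The deposited-scale shares were 35.3% and 52.9%, against 12.9% and 62.5% of all genes tested. After the median of ratios 3919 of all 13588 genes were higher and 3925 lower. The largest rise was that of HCLS1, a cortactin relative of blood cells, which went from 0 in all 3 empty vector libraries to 164, 210.1 and 185 RPKM. The Wiskott-Aldrich syndrome gene WAS, named after its values were seen, differed by 6.82 (log2, SE 0.28, adjusted p = 4.63e-06, limma). With the empty vector WAS stood at 1.58, 0.878 and 2.49 RPKM, so it passed the filter on low values only with the libraries labelled hPRM1. The calls of HCLS1 and WAS thus follow in part from that filter. The largest fall was that of WASF1, a WAVE protein of brain and other tissues, from 24.9, 26.3 and 28.4 RPKM to 0, 0.196 and 0 RPKM. WASF1 passed the filter only through the empty vector libraries, so its call also follows in part from it. In the Arp2/3 complex itself ARPC1B and ARPC4 were called higher and ARPC1A, ARPC5L, ACTR3B and ARPC3 lower, while after the median of ratios 6 of the 10 were higher and none lower.

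Among formins and Ena/VASP proteins, which extend filaments, 2 of 11 were called higher and 7 lower on the deposited scale, or 5 and 4 after the median of ratios. The 63.6% called lower on the deposited scale was close to the 62.5% of all genes tested, and 18.2% were called higher against 12.9%. FMNL1, a formin of leukocytes, rose from 0, 3.10 and 3.91 RPKM to 99.8, 105 and 80.3 RPKM. ENAH fell from 434, 477 and 238 RPKM to 0, 0.857 and 0 RPKM. Among proteins that cap or sever filaments, CAPG rose from 16.2, 0.600 and 4.20 RPKM to 135, 123 and 138 RPKM, and CAPZA1 fell from 75.8, 71.2 and 60.9 RPKM to 13.1, 15.0 and 10.6 RPKM, a difference that became -0.24 (adjusted p = 0.29, limma) after the median of ratios. FMNL1 and CAPG passed the filter on low values only with the libraries labelled hPRM1, and ENAH only through the empty vector libraries. The calls of FMNL1, CAPG and ENAH thus follow in part from that filter.

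Of the myosins and tropomyosins 3 of 11 were called higher and 5 lower on the deposited scale, or 6 and 1 after the median of ratios, and of the membrane and adhesion linkers 1 of 6 higher and 2 lower, or 5 and 1. The deposited-scale shares were 27.3% and 45.5% for the myosins and tropomyosins, and 16.7% and 33.3% for the linkers. Among all genes tested they were 12.9% and 62.5%. The genes named from these roles are those with the largest rise and fall. MYO1F, a class I myosin of leukocytes, rose from 0.0310, 0 and 0 RPKM to 90.0, 154 and 105 RPKM, and MYH10, a non-muscle myosin heavy chain, fell from 31.6, 63.0 and 32.5 RPKM to 0, 0 and 0.0516 RPKM. Of the proteins that tie actin to the membrane, moesin (MSN) rose from 20.6, 23.05 and 27.3 RPKM to 93.0, 136 and 113 RPKM, and radixin (RDX) fell from 667, 517 and 469 RPKM to 10.7, 24.5 and 8.31 RPKM. Among cofilin regulators LIMK2, a kinase of cofilin, was called higher with a log2 difference of 2.28 and CFL2 lower with -4.28. TMSB15A, a further thymosin, fell from 117, 127 and 139 RPKM to 0 in all 3 libraries labelled hPRM1. MYH10, CFL2 and TMSB15A passed the filter on low values only through the empty vector libraries, and MYO1F only through those labelled hPRM1. The calls of these genes follow in part from that filter. ACTA2, smooth muscle actin, fell by 2.87 on the log2 scale, with a difference of -0.999 after the median of ratios.

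**Figure D4:**
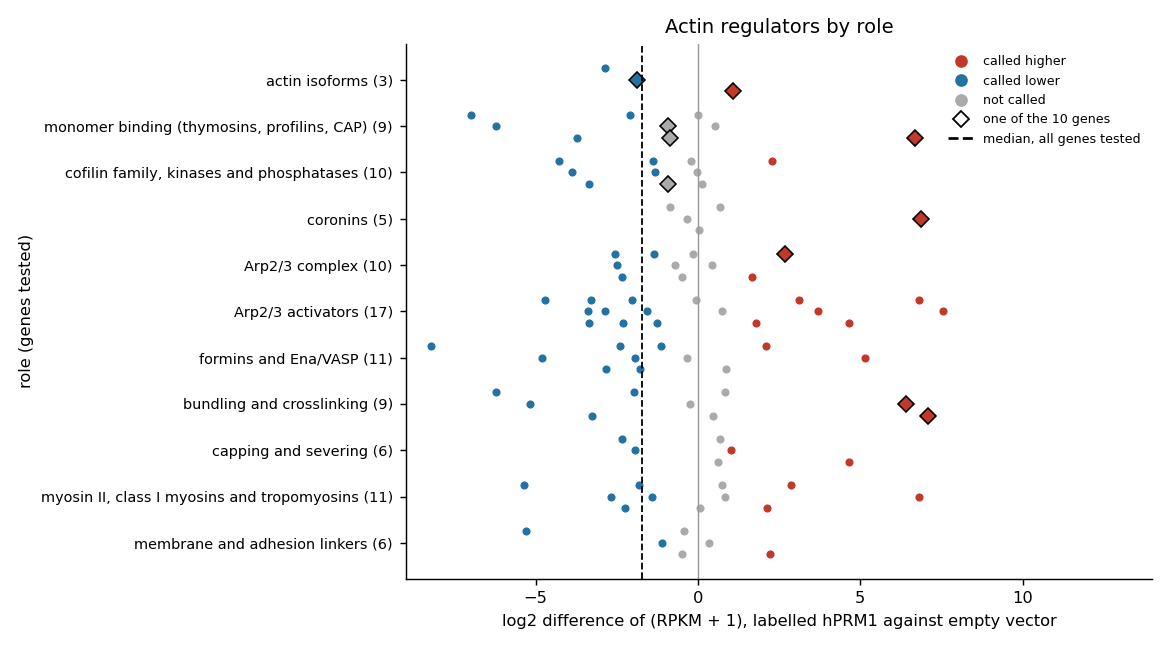
Log2 differences of (RPKM + 1) of the libraries labelled hPRM1 from the empty vector for 97 of the 112 actin genes tested, 1 point per gene and 1 row per role, on the deposited scale, with the number tested in brackets, diamonds for the 10 genes and a dashed line at the median of all genes tested, -1.72. Called rises and falls stand side by side in 10 of the 11 roles shown, and coronins hold no called fall. After the median of ratios the whole list holds 64 rises and 22 falls, against 3919 and 3925 among all 13588 genes tested.

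In the comparison of hPRM2 with the empty vector, 0 of the 8 genes tested were called by limma, and none had an unadjusted p under 0.05, whereas 1.36% of 13126 genes were called higher, 1.37% lower and 3351 genes had an unadjusted p under 0.05. The per-gene test of the study's methods and the other alternatives also called 0, except that ACTG1 was called lower without hPRM2 replicate 1 (log2 difference -1.03, adjusted p = 0.048; over its alternatives 0.048 to 0.98). LCP1 and LSP1 were too low to test. On the deposited scale the log2 differences ran from -0.81 for CORO1A (SE 0.56, adjusted p = 0.38) to 0.19 for CFL1 (SE 0.24, adjusted p = 0.611). For ACTB the difference was -0.28 (SE 0.28, adjusted p = 0.535), for ACTG1 -0.54 (SE 0.46, adjusted p = 0.467) and for TMSB4X -0.57 (SE 0.89, adjusted p = 0.697). These standard errors are wide, and a p that misses the threshold does not show equal levels.

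Some of the 10 genes spread widely among the hPRM2 libraries. ACTG1 had an SD of 1267 RPKM around a mean of 1963 with hPRM2 against 737 around 2573 with the empty vector, and PFN1 an SD of 305 around 570.1 against 59.4 around 497. ARPC1B did not, with an SD of 23.7 around 129.9 against 43.0 around 162. Replicate 1 gave the highest value of ACTB, ACTG1, TMSB10, PFN1 and CFL1 and the lowest of TMSB4X and ARPC1B among the 3 hPRM2 libraries. It also had the fewest genes above 0, 9652 against 14353 and 15633. Without this library TMSB4X differed from the empty vector by 0.41 (log2) in place of -0.57, and PFN1 by -0.33 in place of 0.08. BCYRN1, a very abundant transcript, stood at 1141880 RPKM in hPRM2 replicate 1 and at 14664000 and 12031300 RPKM in replicates 2 and 3. With the empty vector it stood at 1369520, 1058980 and 1462930 RPKM. Its part in the spread of the 10 genes, on a scale divided by the library total, was not tested.

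Across the wider list 3 of 100 genes tested were called between hPRM2 and the empty vector, 1 higher (1.0%) and 2 lower (2.0%), close to the 1.36% and 1.37% of all genes. Among the lower ones ACTA2 fell from 26.1, 27.5 and 17.9 RPKM to 0, 0 and 1.70 RPKM (log2 difference -4.13, adjusted p = 0.0323). Without a filter on low values, and under the replicate block, none was called. In the within-library ratios hPRM2 overlapped the empty vector in all 9 pairs, with exact permutation p from 0.2 to 1.

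Between the libraries labelled hPRM1 and hPRM2, the same 6 genes, ACTB, TMSB4X, CORO1A, ARPC1B, LCP1 and LSP1, were called higher and ACTG1 and CFL1 lower on the deposited scale, where 16.0% of 11756 genes were called higher and 37.0% lower. The libraries labelled hPRM1 enter this comparison and that with the empty vector, so the 2 sets of calls are not independent. CORO1A, LCP1 and LSP1 again passed the filter on low values only through the libraries labelled hPRM1. Their calls follow in part from that filter. The log2 difference was 7.25 for TMSB4X (SE 0.82, adjusted p = 0.000774; 6.27 without hPRM2 replicate 1), 1.37 for ACTB (SE 0.26, adjusted p = 0.0052) and 2.99 for ARPC1B (SE 0.23, adjusted p = 0.000202, limma). It was -1.32 for ACTG1 (adjusted p = 0.0432) and -1.10 for CFL1 (adjusted p = 0.00919), and both signs turned under the median of ratios (0.62 and 0.83) and quantile normalization (1.26 and 1.25). By the per-gene test of the methods ARPC1B and LSP1 alone were called. In all 10 genes the 2 groups did not overlap, which was so for 62.0% of all genes tested.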

How the data were processed

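RNA of 9 libraries labelled as HEK293T, 3 per group, was measured. Per the labels and the study's methods, total RNA was isolated with the NucleoSpin RNA Plus kit, made into QuantSeq 3′ mRNA libraries and sequenced on a NovaSeq instrument. The submitters' processing notes name FastQC, cutadapt, STAR, Salmon and hg38; versions and the annotation release were not given in the sources used here. The authors removed mitochondrial genes and deposited RPKM values, that is, each count scaled by the total of its library and divided by gene length in kilobases. Dividing by the total of each library makes a gene's RPKM depend on the share taken by the most abundant genes.

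Groups were taken from the labels. From the deposited RPKM values, log2(RPKM + 1) was fitted with limma 3.58.1 in R 4.3.3 (lmFit, eBayes with trend and robust), separately for each pair of groups, over genes with at least 1 RPKM in at least 3 of the 6 libraries. A gene was called at a Benjamini-Hochberg adjusted p of at most 0.05 and at least 2-fold. Within-library ratios were tested by an exact two-sided permutation test (SciPy 1.17.1). The code was checked on simulated data. Alternatives were pseudocounts of 0.1 and 5, no filter, a minimum of 10 RPKM, the median of ratios, quantile normalization, 1 fit of all libraries, the replicate number as a block, no fold threshold, each library left out with the tested genes kept, and the per-gene test named in the study's methods. Depth was estimated from the steps between low values over 13863 single-transcript genes of GENCODE 29. Identifiers were matched to symbols for 98.64% of genes; coordinates and 3′-end words come from GENCODE 29 (GRCh38) and promoters from RefSeq (GRCh38.p14).

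The 10 genes, the lists and the pairs were chosen with earlier results of these data known. Named genes were all 10, both genes of the 10 pairs, and in each role the called gene with the largest rise and the largest fall; the PU.1 search was added after the values were seen. All columns of the table were used. Individual results of 1 role of the list and of 1 pair are not reported here, although they enter the totals and the adjustment.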

Additional observations from a re-analysis of the deposited data

How the results depend on the processing

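The 6 calls ACTB, TMSB4X, CORO1A, ARPC1B, LCP1 and LSP1 in the libraries labelled hPRM1 against the empty vector were made under all 15 alternatives; the other calls depended on the scaling, and the cause of changes under the other settings was not tested. The number of the 10 genes called lower there, 1, became 0 under the median of ratios, quantile normalization and the per-gene test, and 4 with no fold threshold (leaving out 1 library, 1 to 2). Reversed log2 differences under the median of ratios and quantile normalization were 0.33 and 0.16 for ACTG1, 1.27 and 1.15 for TMSB10, 1.33 and 1.04 for PFN1, and 1.27 and 1.05 for CFL1. Without hPRM1 replicate 2, CFL1 was also called lower (-1.03). Against hPRM2, the 6 genes called higher became 10 under quantile normalization and 2 under the per-gene test, and the 2 called lower became 1 without a filter and 0 under the median of ratios, quantile normalization and the per-gene test (leaving out 1 library, 0 to 2; ACTG1 was lost without any of the 3 libraries labelled hPRM1 and without hPRM2 replicate 1 or 3, CFL1 without hPRM1 replicate 1, and TMSB10 was gained without hPRM2 replicate 3). Reversed values there were 0.62 and 1.26 for ACTG1, 1.02 and 1.71 for TMSB10, 1.0 and 1.28 for PFN1, and 0.83 and 1.25 for CFL1. For hPRM2 against the empty vector, 0 to 1 of the 10 were called lower leaving out 1 library. Reversed values were 0.29 for ACTB, 0.0253 for ACTG1 and 0.26 for ARPC1B under the median of ratios, and -0.55 for TMSB10, -0.13 for PFN1 and -0.13 for CFL1 under quantile normalization; leaving out 1 library gave -1.07 to 0.41 for TMSB4X, -0.15 to 0.14 for TMSB10 and -0.33 to 0.29 for PFN1.

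Of the wider list, the 28 higher and 51 lower calls in the libraries labelled hPRM1 against the empty vector became 64 and 22 under the median of ratios and 57 and 26 under quantile normalization, and the lower calls 29 under the per-gene test. Among all genes tested, 3919 were higher and 3925 lower under the median of ratios, and 3404 and 4672 under quantile normalization. Against hPRM2, 30 higher and 27 lower of the list became 61 and 14 under the median of ratios. They became 59 and 16 under quantile normalization and 6 and 3 under the per-gene test. Among all genes tested against hPRM2, these scalings gave 3662 higher and 2148 lower, and 3114 and 2572. For hPRM2 against the empty vector, the 1 higher call became 0 with a pseudocount of 0.1, no filter, a minimum of 10 RPKM, the replicate block or the per-gene test, and 2 in the fit of all libraries (leaving out 1 library, 0 to 2). The 2 lower calls became 1 with a pseudocount of 0.1, the median of ratios or quantile normalization, 0 with no filter, the replicate block or the per-gene test, and 17 in the fit of all libraries (leaving out 1 library, 0 to 23, the highest without hPRM2 replicate 1). The ratio of RAC2 to RAC1 with hPRM2 was -0.75 with no pseudocount; leaving out 1 library gave -0.91 to 0.93 for ARPC1B over ARPC1A, -0.21 to 0.59 for LCP1 over PLS3, -0.0764 to 0.71 for CFL1 over CFL2 and -1.19 to 0.57 for TMSB4X over TMSB10.

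Correlations of the deviations of same-numbered samples were not over 0.1 in every pair of any comparison (-0.0115, 0.0417 and -0.0282 for the libraries labelled hPRM1 with the empty vector, -0.0179, 0.0929 and -0.0806 for hPRM2 with the empty vector, and 0.105, 0.075 and 0.0127 between the libraries labelled hPRM1 and hPRM2), so the numbers were not taken to pair the libraries. In none of these comparisons did every library correlate best with its own number. Between the libraries labelled hPRM1 and hPRM2, however, hPRM2 replicate 3 was the only exception, at 0.0628 with number 2 and 0.0127 with its own number. With the replicate block 6 of the 10 genes were called higher and 1 lower in the libraries labelled hPRM1 against the empty vector, 0 and 0 with hPRM2, and 6 and 2 for the libraries labelled hPRM1 against hPRM2.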
